A study of Homo sapiens with 3 samples.

Results

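Cancer-testis antigens are proteins that are normally made in the germ cells of the testis and that many tumours switch on again. The genes examined here were all symbols beginning with MAGEA, MAGEB, MAGEC, MAGED, MAGEE, MAGEF, GAGE, PAGE, XAGE, CTAG, CSAG or CT45, together with SSX followed by a digit. The rule used names only and gave 50 of the 16793 gene symbols in the files. The prefix CTAG also catches CTAGE15, a gene of a separate family, so it is kept apart and 14 families are described. By RefSeq, 48 of the 50 genes lie on chromosome X. The exceptions are MAGEF1 on chromosome 3 and CTAGE15 on chromosome 7.

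The cells were H446, an established line of human small cell lung cancer, grown for 48 h with vehicle, with 3-bromoascochlorin (BAS) at 5 µM or with BAS at 10 µM. BAS is a brominated form of the fungal metabolite ascochlorin. Each of the 3 groups is a single library (1 per group), which allows no test, no p-value and no measure of the spread between cultures. The title names the antitumour action of BAS and the MAPK pathway. In the file headers the treated columns carry ASB codes and not the labelled name, so each dose rests on the file titles and treatment labels.

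In normal somatic tissue the promoters of most of these genes are held silent by DNA methylation at CG dinucleotides, and loss of that methylation is the best known route to their return in tumours. Peptides of MAGEA, GAGE, CTAG and XAGE proteins shown on HLA class I can be seen by cytotoxic T cells, which made these families targets for vaccines and engineered T cells. The MAGE proteins share a domain that binds RING ubiquitin ligases. The MAGEA, MAGEB and MAGEC branches are restricted to the germline and tumours, whereas the MAGED, MAGEE and MAGEF branches are also made in normal tissues.

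The promoter sequences below show how members that were at high levels and members near 0 compare. Each is the 250 bases before a RefSeq transcript start in GRCh38.p14, read 5′ to 3′ on the strand of the gene, with each CG dinucleotide in capitals. Where a gene has several starts, the one with the most CG is printed. The windows are MAGEA3 chrX:152698544-152698793 (plus strand), MAGEA2B chrX:152714378-152714627 (plus strand), CSAG1 chrX:152733722-152733971 (minus strand), MAGEA9 chrX:149781680-149781929 (plus strand), MAGEC1 chrX:141903644-141903893 (plus strand), MAGEC2 chrX:142205291-142205540 (minus strand), MAGED2 chrX:54808096-54808345 (plus strand).
MAGEA3: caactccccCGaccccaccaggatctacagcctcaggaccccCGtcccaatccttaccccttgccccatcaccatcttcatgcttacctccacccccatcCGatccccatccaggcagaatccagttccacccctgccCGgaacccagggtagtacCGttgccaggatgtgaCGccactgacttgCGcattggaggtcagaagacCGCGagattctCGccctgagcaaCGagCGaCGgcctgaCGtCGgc
MAGEA2B: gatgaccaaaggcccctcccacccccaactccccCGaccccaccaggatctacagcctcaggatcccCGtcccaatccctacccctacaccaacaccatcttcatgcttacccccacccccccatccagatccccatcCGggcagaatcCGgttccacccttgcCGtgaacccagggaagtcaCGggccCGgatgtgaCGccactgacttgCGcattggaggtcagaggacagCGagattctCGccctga
CSAG1: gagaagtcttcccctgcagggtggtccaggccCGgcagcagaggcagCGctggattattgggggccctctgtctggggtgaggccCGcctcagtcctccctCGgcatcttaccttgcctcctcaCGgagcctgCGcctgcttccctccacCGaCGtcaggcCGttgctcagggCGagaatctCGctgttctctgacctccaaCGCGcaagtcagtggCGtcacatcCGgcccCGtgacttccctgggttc
MAGEA9: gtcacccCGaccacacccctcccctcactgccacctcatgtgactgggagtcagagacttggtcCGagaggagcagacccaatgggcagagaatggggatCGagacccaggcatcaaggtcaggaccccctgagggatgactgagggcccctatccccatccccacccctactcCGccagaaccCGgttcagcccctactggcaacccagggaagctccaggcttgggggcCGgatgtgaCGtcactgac
MAGEC1: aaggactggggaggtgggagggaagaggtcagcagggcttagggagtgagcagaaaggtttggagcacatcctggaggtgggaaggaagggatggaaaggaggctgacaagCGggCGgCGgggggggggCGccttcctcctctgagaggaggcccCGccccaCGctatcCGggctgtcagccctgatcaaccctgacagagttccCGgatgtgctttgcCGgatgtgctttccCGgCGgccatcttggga
MAGEC2: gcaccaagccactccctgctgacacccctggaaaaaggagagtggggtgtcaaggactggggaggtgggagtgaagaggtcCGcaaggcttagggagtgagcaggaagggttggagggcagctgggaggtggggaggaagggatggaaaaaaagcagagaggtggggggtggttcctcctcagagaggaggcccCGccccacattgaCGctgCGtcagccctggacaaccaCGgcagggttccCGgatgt
MAGED2: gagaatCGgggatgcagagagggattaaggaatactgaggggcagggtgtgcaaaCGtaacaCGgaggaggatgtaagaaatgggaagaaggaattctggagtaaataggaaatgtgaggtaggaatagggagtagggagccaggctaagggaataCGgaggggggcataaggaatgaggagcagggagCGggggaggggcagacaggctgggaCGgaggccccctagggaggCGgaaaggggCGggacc

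A promoter window was found for 43 of the 50 genes. Across the 35116 promoter windows of the table, with every window counted, the median was 11 CG. The member counts that follow take 1 window per gene, the one with the most CG. They are therefore not on the same footing as that median. The germline-restricted families had 15 members with a window and a mean level of at least 1 FPKM (fragments per kilobase of transcript, scaled to the mapped fragments of the library), and these held 8 to 17 CG with a median of 11. The 20 below that level held 3 to 18 CG with a median of 8. The ranges overlapped, and MAGEA11, which was near 0, had the highest count of the 20. Methylation itself was not measured.

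The MAGEA3 window was identical to that of MAGEA6 at all 250 positions. The same held for MAGEA2B and MAGEA2, for MAGEA9 and MAGEA9B, and for XAGE1A and XAGE1B. CSAG1 starts head to head with MAGEA12, and windows of the pair (each with 50 bases past the start) share 240 bases on opposite strands. CSAG3 and MAGEA2 are placed in the same way, with 178 shared bases. The letters GGATGTGA, or TCACATCC on the other strand, stand in 14 of the 43 windows, against 0.965% of all windows. The 14 count identical windows and overlapping windows separately, so they are not 14 independent sites. These letters were chosen after the windows had been read. They occur in members with a mean at or above 1 FPKM (MAGEA2, MAGEA2B, MAGEA3, MAGEA6, MAGEA12, CSAG1 and CSAG3). They also occur in members below it, among them MAGEA4, MAGEA9, MAGEA11, MAGEB2 and MAGEB16. The letters CGGAAG, or CTTCCG on the other strand, a core bound by ETS factors, stand in 16.5% of all windows. With 1 window per gene, the one with the most CG, they were in 0 of the 15 germline-restricted members at or above 1 FPKM and in 5 of the 20 below it. The 15 also count identical and overlapping windows separately, and their GAGE windows have nearly the same sequence. They therefore stand for far fewer distinct promoters. Among so few, a count of 0 cannot be told apart from the 16.5% of all windows, so no contrast between the groups is drawn.

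All values of a library add up to between 487923 and 507342 FPKM. The files hold no counts, and without a known read depth the counting error of a value cannot be stated. Comparisons were made as differences of log2(FPKM + 1) on the 11512 genes whose mean across libraries reached 1 FPKM, and an absolute difference of 1 or more is a call of 2-fold higher or 2-fold lower. This scale understates the differences of low genes. Folds are plain ratios of FPKM. In RNA from a whole culture, fewer cells making a transcript and less transcript per cell cannot be told apart. Of 9 small cell lung cancer and neuroendocrine markers in the files, 7 passed the filter. Among them UCHL1 was at 82.21 FPKM with vehicle and at 131.19 and 176.51 FPKM at the lower and higher dose, NEUROD1 was at 91.62 to 104.96 FPKM and INSM1 at 72.85 to 95.14 FPKM. Against vehicle 0 of the 7 were called at 5 µM. At 10 µM UCHL1 (1.09) and CHGA (1.35) were called higher, CHGA at 1.91 FPKM with vehicle and 6.41 FPKM at that dose. Over all genes tested, 0.747% were called at 5 µM and 1.95% at 10 µM. At each dose 4 of the 7 markers lay above vehicle and 3 below, NEUROD1 among the latter. Also below were POU4F1 (101.29, 69.87 and 65.66 FPKM for vehicle, 5 µM and 10 µM) and SYP (17.3, 12.77 and 13.25 FPKM). The part of these marker differences in the values of the family members was not tested. The 3 germ cell markers in the files, SYCP3, TDRD1 and PIWIL2, were at 0.02 to 0.32 FPKM.

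Of the 50 genes, 27 passed the filter, and their levels were high. In the vehicle library their median was 45.16 FPKM, against 12.1 FPKM over all genes that passed. In the same library 9 of the 50 stood among the 1000 highest genes. XAGE1A and XAGE1B, listed at 1 equal value, are counted separately among the 9. Together the 50 genes summed to 1904.85 FPKM in the vehicle library, to 1924.98 FPKM at 5 µM and to 1821.37 FPKM at 10 µM. That was 0.390%, 0.379% and 0.370% of the summed FPKM of the library. Each treated total lay within a few percent of vehicle, at 1.01-fold for 5 µM and 0.956-fold for 10 µM. GAGE12B, whose short gene model is described below, lost more FPKM than the whole set did between the vehicle library (540.62) and the 10 µM library (452.47). The lower total at 10 µM therefore rests on this gene, and without it that total is not below vehicle.

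**Figure D1:**
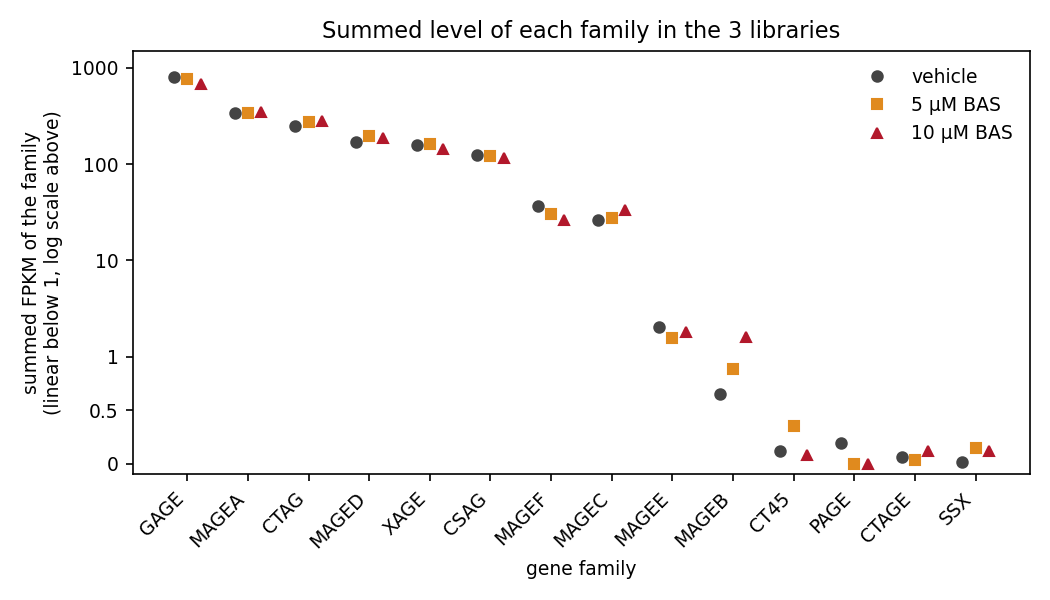
Summed FPKM of each of the 14 families (vertical axis, linear below 1 and on a log scale above) in the vehicle (circle), 5 µM (square) and 10 µM (triangle) library, 1 library each. GAGE, GAGE12B included, was highest at 680.27 to 799.4 FPKM, and CT45, PAGE, CTAGE and SSX stayed below 0.5 FPKM in each library.

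The MAGEA genes were split between members that were clearly on and members near 0. As a family they summed to 336.65 FPKM in the vehicle library, to 341.15 FPKM at 5 µM and to 347.66 FPKM at 10 µM, a ratio of 1.01 and 1.03 to vehicle. These differences, 0.02 and 0.05 on the log2 scale, took the other sign after median-ratio scaling and after quantile normalization. MAGEA3 and MAGEA6 encode proteins that bind the ligase TRIM28 and have been tied to the loss of an AMPK subunit. MAGEA3, the highest of the family in each library, was at 79.85, 77.38 and 75.46 FPKM for vehicle, 5 µM and 10 µM, the order used from here on. MAGEA6 was at 58.19, 55.84 and 62.95 FPKM. The 3 libraries lay close together for each of these genes, and their sum was 138.04, 133.22 and 138.41 FPKM.

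MAGEA1, whose product was the founding tumour antigen of the family, was at 55.86, 58.86 and 57.98 FPKM. MAGEA12 was at 45.16, 46.82 and 43.33 FPKM. For both genes the 3 libraries lay within a few FPKM of each other. MAGEA10 was at 56.12, 61.57 and 69.01 FPKM, so that the 10 µM library was highest at 1.23-fold of vehicle. The read-through transcript of this gene with its neighbour, MAGEA10-MAGEA5, was at 0.93, 0.29 and 0.14 FPKM and so ran in the other order at a far lower level.

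MAGEA2 and MAGEA2B gave the only MAGEA calls. MAGEA2 was at 15.39, 27.89 and 12.64 FPKM, and MAGEA2B at 24.78, 11.75 and 24.99 FPKM. At 5 µM MAGEA2 was high where MAGEA2B was low, and at vehicle and 10 µM the order was turned round. MAGEA2B was 2-fold lower at 5 µM against vehicle (difference −1.02). Between the doses MAGEA2 was 2-fold lower (−1.08) and MAGEA2B 2-fold higher (1.03) at 10 µM. Their sum was 40.17, 39.64 and 37.63 FPKM, with differences from vehicle of −0.02 and −0.09. In GENCODE 29, a GRCh38 annotation, 100% of the 50-base sequences of each longest coding transcript occur in the other gene, and the reads were 50 bases long, so the split between the pair is uncertain and the sum is the usable value.

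**Figure D2:**
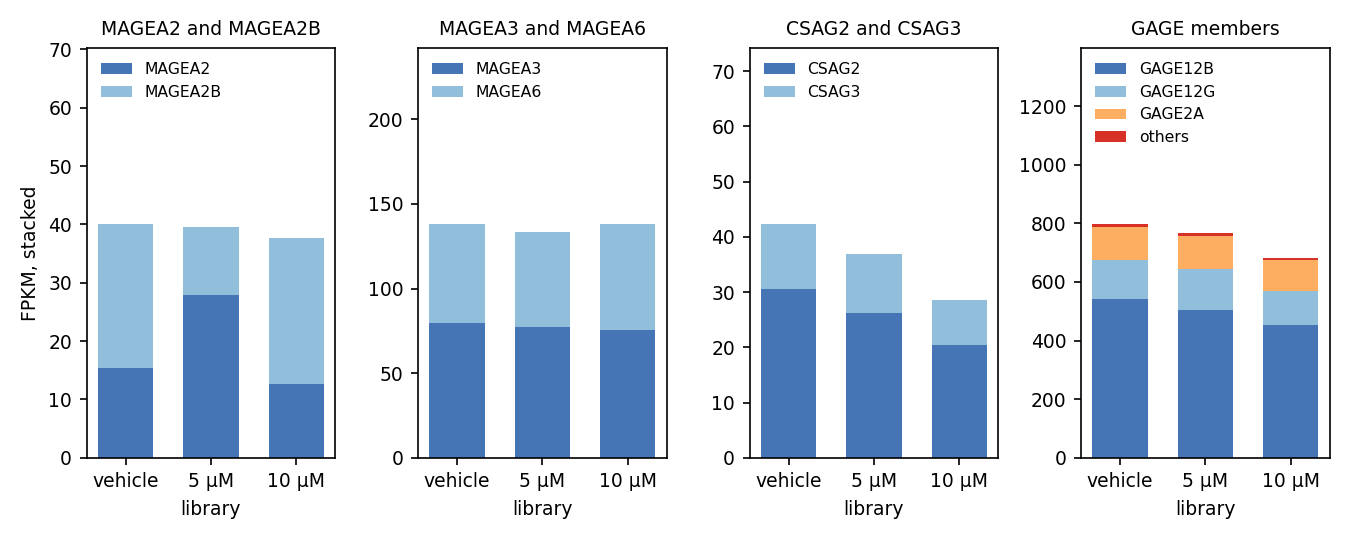
Stacked FPKM (vertical axis from 0) of near-identical copies in the 3 libraries, 1 bar per library. The MAGEA2 and MAGEA2B shares trade places at 5 µM while the bar height stays at 37.63 to 40.17 FPKM; the CSAG2 and CSAG3 bars are lower at 5 µM and lowest at 10 µM.

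The remaining MAGEA members were near 0. MAGEA4, a target of engineered T cells, had 0.03 FPKM in the vehicle library and is listed at 0 for both doses. MAGEA11, a coregulator of the androgen receptor, was listed at 0 with vehicle and at 0.03 FPKM at each dose. MAGEA9 was at 0.34, 0.72 and 1.13 FPKM, while its copy MAGEA9B was listed at 0 in all 3 libraries. These copies share 94.0% of the 50-base sequences of MAGEA9, so the values of MAGEA9 stand for the pair. The pair lay below the filter and was highest at 10 µM.

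The MAGEB and MAGEC families were mostly silent. The 5 MAGEB members summed to 0.65, 0.89 and 1.62 FPKM, and 0 of them passed the filter. MAGEB6 led them at 0.52, 0.69 and 1.46 FPKM, with a mean of 0.89 FPKM just under the filter. Within MAGEC, MAGEC1 (also known as CT7, an antigen studied in myeloma) was at 25.99, 26.82 and 32.7 FPKM, or 1.26-fold of vehicle at 10 µM. MAGEC2, another partner of TRIM28, was at 0.08, 0.47 and 0.31 FPKM, and MAGEC3 at 0.03, 0.05 and 0.11 FPKM. The promoter windows printed above hold 11 CG for the active MAGEC1 and 6 CG for MAGEC2.

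The GAGE genes had the highest family sum, a rank that rests on GAGE12B. The 8 members, which encode small proteins with little fixed structure, summed to 799.4, 766.75 and 680.27 FPKM, a ratio to vehicle of 0.959 at 5 µM and 0.851 at 10 µM. GAGE12B alone held 65.6% to 67.6% of the sum, at 540.62, 503.28 and 452.47 FPKM. In GENCODE 29 its longest coding transcript has 117 bases, all of it shared with other GAGE genes. A short gene model gives a high FPKM per read. The sources used here do not give the annotation behind the values, and the part that model length plays in the level of GAGE12B was not tested. Without GAGE12B the family summed to 258.78, 263.47 and 227.8 FPKM, below MAGEA in each library. Its ratio to vehicle was 1.02 at 5 µM and 0.880 at 10 µM, so the small difference at 5 µM changed side and that at 10 µM kept it.

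GAGE12G was at 135.6, 139.88 and 117.8 FPKM and GAGE2A at 112.44, 114.74 and 106.16 FPKM. In both, the 10 µM library was lowest. GAGE1 was at 8.26, 7.12 and 3.84 FPKM, 0.465 times vehicle at 10 µM. Its difference of −0.94 was just short of the call and passed it with a pseudocount of 0.1 or 0.5 in place of 1. GAGE12D was at 2.11 and 1.15 FPKM and listed at 0 at 10 µM. It was called lower at 10 µM against vehicle (−1.64) and against 5 µM (−1.10). Its mean of 1.09 FPKM was just above the filter and reached it only through the vehicle and 5 µM values. The filter itself thus favoured a lower call at 10 µM. Of its 50-base sequences, 100% are found in other GAGE genes. GAGE10, GAGE12H and GAGE12J stayed at or below 0.42 FPKM.

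The CTAG family encodes NY-ESO-1 (from the copies CTAG1A and CTAG1B) and LAGE-1 (from CTAG2), antigens used in vaccine and T cell trials. CTAG2 was at 161.06, 171.18 and 182.97 FPKM, which placed it at rank 399, 363 and 337 among all symbols. CTAG1A and CTAG1B were listed at the same value as each other in each library, 44.88, 52.31 and 49.06 FPKM. Their coding transcripts share 89.8% of the 50-base sequences of CTAG1A. Whether the equal values are reads divided between the copies or 1 value written for both was not tested. The family sum was 250.82, 275.8 and 281.09 FPKM, and both treated libraries were above vehicle, at 1.10-fold and 1.12-fold.

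XAGE1A and XAGE1B, known from lung adenocarcinoma, were also listed at equal values, 78.35, 81.3 and 71.79 FPKM each. XAGE2 was at 0.25, 0.81 and 0.99 FPKM, below the filter, with both treated libraries above vehicle. XAGE5 was at most at 0.07 FPKM. The family sum was 157.02, 163.41 and 144.64 FPKM, with ratios to vehicle of 1.04 (just below 1 after quantile normalization) and 0.921.

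The CSAG genes lie among the MAGEA genes. CSAG1, head to head with MAGEA12, was at 81.85, 85.45 and 88.03 FPKM, beside 45.16, 46.82 and 43.33 FPKM for MAGEA12. At 10 µM the neighbours lay on opposite sides of vehicle by small differences of 0.10 and −0.06. CSAG2 and CSAG3, also called TRAG-3 for a link to taxol resistance, were lower at 5 µM and lowest at 10 µM. CSAG2 was at 30.62, 26.26 and 20.36 FPKM and CSAG3 at 11.8, 10.65 and 8.19 FPKM. They share 93.7% of their 50-base sequences, and their sum of 42.42, 36.91 and 28.55 FPKM was 0.673 times vehicle at 10 µM, a difference of −0.56 that did not reach the call. The sum of MAGEA2 and MAGEA2B, of which MAGEA2 starts head to head with CSAG3, was 0.937 times vehicle at the same dose.

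The MAGED, MAGEE and MAGEF branches, which normal tissues also express, held the member with the highest difference at 10 µM. MAGED2, which supports salt transporters in the fetal kidney, was at 48.93, 76.39 and 81.87 FPKM. Both treated libraries lay well above vehicle, at 1.56-fold and 1.67-fold, with differences of 0.63 and 0.73 that did not reach the call. Among all tested genes, 97.7% at 5 µM and 96.7% at 10 µM had a lower difference than MAGED2. At 0.187% its transcript shares almost no 50-base sequence with another gene. MAGED1, an adaptor of the neurotrophin receptor, was at 106.77, 102.82 and 90.24 FPKM, and so was lowest where MAGED2 was highest. The copies MAGED4 and MAGED4B were listed at equal values, 7.52, 7.66 and 7.9 FPKM.

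MAGEF1, which directs a ubiquitin ligase to the iron-sulfur assembly factor MMS19, was at 36.78, 30.65 and 26.35 FPKM. Each treated library was below vehicle, at 0.833 and 0.716 times, and no other gene shares its 50-base sequences. MAGEE1, a partner of the dystrobrevin complex, was at 2.01, 1.56 and 1.81 FPKM. MAGEE2 had 0.02 FPKM in the vehicle library and is listed at 0 for both doses.

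**Figure D3:**
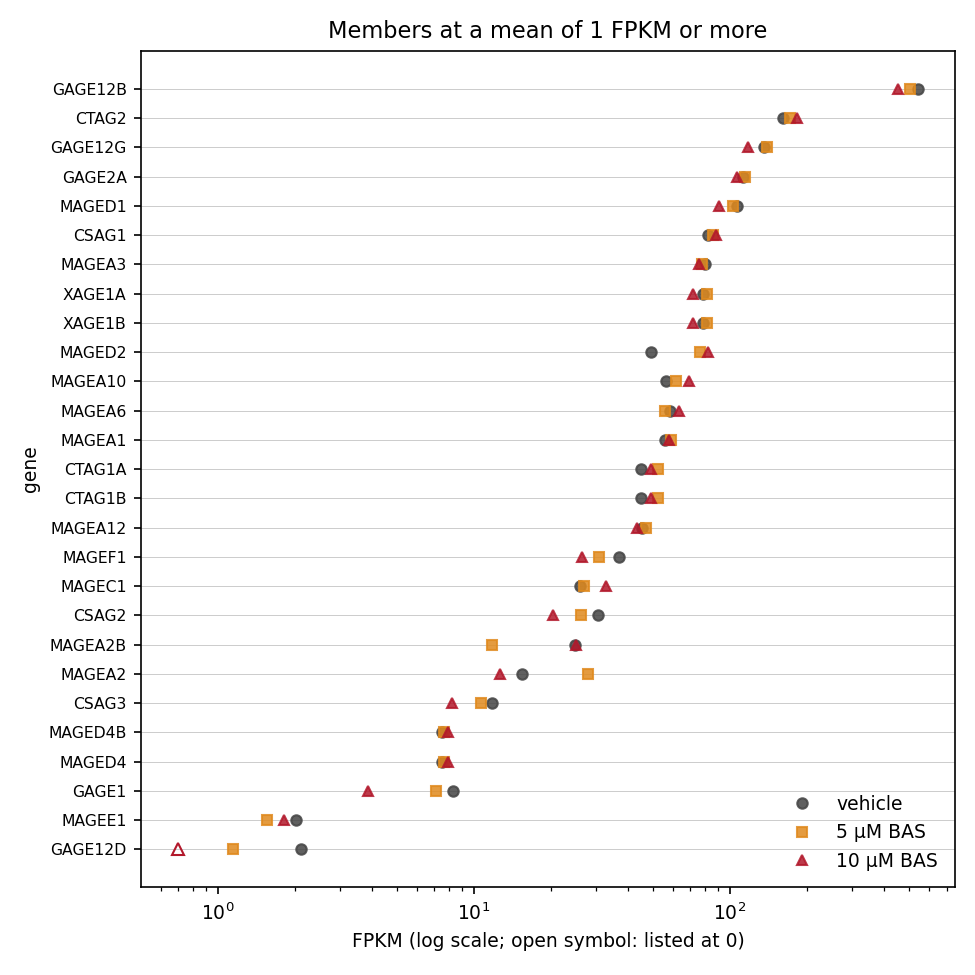
FPKM on a log axis of the 27 genes that passed the filter, ordered by mean, with 1 point per library (circle vehicle, square 5 µM, triangle 10 µM). The points of most genes lie together; MAGED2 has vehicle apart at 48.93 FPKM, MAGEA2 and MAGEA2B have 5 µM apart in opposite directions, and the open triangle marks GAGE12D listed at 0 at 10 µM.

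The last families were at or near 0. SSX1 and SSX5, whose relatives are fused to another gene in synovial sarcoma, were at most at 0.15 FPKM. CT45A10 was at 0.12, 0.35 and 0.08 FPKM, PAGE5 at 0.19 FPKM in the vehicle library and listed at 0 with BAS, and CTAGE15 at 0.06, 0.04 and 0.12 FPKM. In all, 23 of the 50 genes were below the filter, and their values summed to 3.16, 4.38 and 4.72 FPKM. The highest value among them was 1.46 FPKM, for MAGEB6 at 10 µM.

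Across the 27 genes that passed, 1 was called lower and 0 higher at 5 µM against vehicle (MAGEA2B), where 0.747% of the 11512 genes were called, 0.208% lower and 0.539% higher. At 10 µM against vehicle 1 was called lower and 0 higher (GAGE12D), where 1.95% of all genes were called, 0.643% lower and 1.31% higher. Between the doses 1 was called higher and 2 lower (MAGEA2B, and MAGEA2 with GAGE12D), where 0.0869% of all genes were called, 0.0434% in each direction. These are counts of 1 to 3 genes, and GAGE12D passed the filter only through its vehicle and 5 µM values. Every called gene is a copy whose reads other members share. In an alternative added after the data were seen, members were summed first where either shares at least 50% of its 50-base sequences with the other. With it, 0 were called in each of the 3 comparisons. It joined all 8 GAGE genes into 1 sum, 799.4 FPKM with vehicle, in which GAGE12D at 2.11 FPKM cannot show. GAGE1 was joined through copies that match it, although only 10.2% of the 50-base sequences of its longest transcript (2873 bases) are shared. The other GAGE transcripts are shorter, and up to 67.3% of their sequences (GAGE12J, 541 bases) occur in GAGE1. The median difference of the 27 was 0.03 at 5 µM and −0.08 at 10 µM, against 0.02 and 0.05 over all genes tested, and between the doses it was −0.09 against 0.04. The median absolute difference was 0.09 at 5 µM and 0.13 at 10 µM, against 0.16 and 0.20 over all genes tested. Between the doses the order was the other way, 0.16 for the 27 genes against 0.10 for all. These medians count the pairs listed at equal values (CTAG1A and CTAG1B, MAGED4 and MAGED4B, XAGE1A and XAGE1B) as separate genes. Both treated libraries share the vehicle library as their control.

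**Figure D4:**
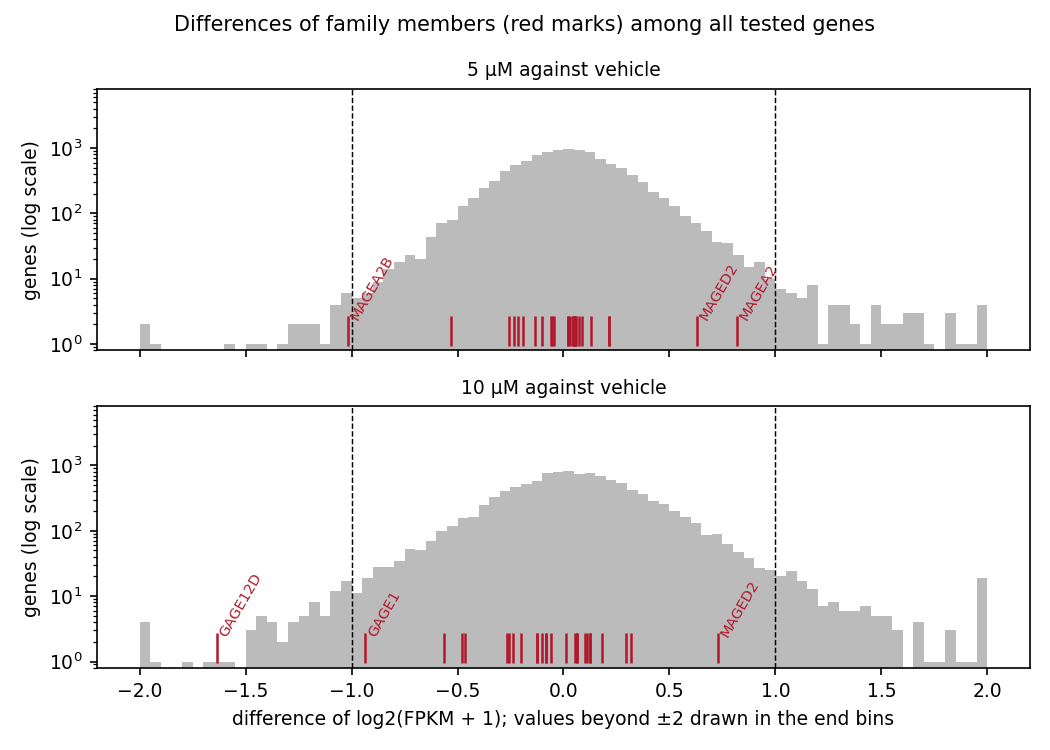
Number of tested genes (vertical log axis) by difference of log2(FPKM + 1) against vehicle (horizontal axis) at 5 µM (top) and 10 µM (bottom), with the 27 family members as red marks and dashed lines at the call of 1 in each direction. Most marks lie near 0, with MAGED2 at 0.63 and 0.73, MAGEA2B at −1.02 in the top panel and GAGE12D at −1.64 in the bottom panel.

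Of 389 other genes of chromosome X that passed the filter, 4 were called higher and 0 lower at 5 µM against vehicle. At 10 µM against vehicle 6 were called higher and 1 lower, and between the doses 0 were called. Over all 11512 genes tested, 0.747%, 1.95% and 0.0869% were called in these comparisons. The medians of the 389 against vehicle were 0.01 and 0.04, against 0.02 and 0.05 over all genes tested.

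Genes around these families were set beside them from lists. Over all genes tested, 0.747% were called at 5 µM, 1.95% at 10 µM and 0.0869% between the doses. A count of 0 in lists of this size is near those shares. Of 37 other cancer-testis genes in the files, which lie outside the families, 15 passed the filter and 0 were called at either dose against vehicle or between doses, with medians of −0.13 and −0.03. Several of these are genes of dividing cells. Highest were PLAC1, a placental gene of chromosome X, at 34.85, 48.54 and 43.38 FPKM, the kinesin gene KIF2C at 42.06, 35.67 and 36.17 FPKM, and the abscission gene CEP55 at 32.44, 28.28 and 33.65 FPKM. PRAME, a widely studied tumour antigen, was listed at 0 with vehicle and at 0.03 FPKM at each dose, and was chosen after its values were seen.

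MAGE relatives outside the prefixes and the ligase partners of MAGE proteins had 12 of 13 genes past the filter, and 0 were called. Their medians were −0.03 and −0.07. TRIM28, the ligase bound by MAGEA3, MAGEA6 and MAGEC2 and a corepressor of silenced chromatin, was at 384.59, 334.45 and 299.91 FPKM, or 0.780 times vehicle at 10 µM. NSMCE1, the ligase bound by MAGEF1, was at 41.02, 44.19 and 42.47 FPKM, and MMS19 at 39.15, 35.28 and 32.46 FPKM.

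Among 31 chromatin regulators of germline genes, covering DNA methylation, histone methylation and deacetylation and the Polycomb-type complex that represses germline genes, 29 passed the filter and 0 were called. Their medians were −0.10 and −0.07. DNMT1, the maintenance DNA methyltransferase, was at 83.33, 85.23 and 91.61 FPKM, the demethylase gene KDM1A at 130.45, 117.17 and 111.64 FPKM, and the deacetylase gene HDAC2 at 78.94, 73.5 and 69.51 FPKM. CTCFL (BORIS), a germline paralogue of CTCF, was at 0.07 to 0.17 FPKM, and ETS1 at most at 0.01 FPKM. Both were named after their values were seen.

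Of 15 antigen presentation genes in the files 8 passed the filter and 0 were called, with medians of 0.36 and 0.45 and 6 of the 8 above vehicle at each dose. B2M, the invariant chain of HLA class I, was at 185.51, 232.78 and 243.12 FPKM. The chaperone genes CALR and PDIA3 were the members below vehicle, CALR at 753.18, 660.16 and 667.75 FPKM and PDIA3 at 238.22, 201.56 and 187.02 FPKM.

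**Figure D5:**
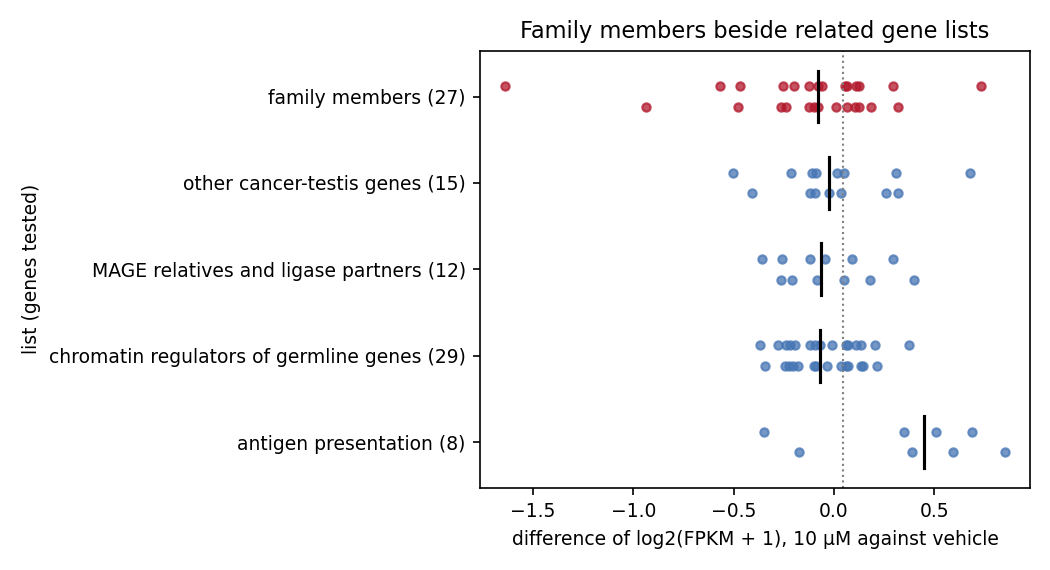
Difference of log2(FPKM + 1) at 10 µM against vehicle (horizontal axis) for each gene that passed the filter, by list, with 1 point per gene, a black bar at the list median and a dotted line at the median of all tested genes, 0.05. The family members center at −0.08 with a range of −1.64 to 0.73; the antigen presentation genes center at 0.45.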

How the data were processed

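RNA-seq of H446 cells gave 3 libraries, 1 per group, sequenced as single-end reads of 50 bases per the labels' protocols. Per the file headers, the authors deposited FPKM. The submitters' processing notes name Cufflinks, Cuffdiff, Bowtie2, BWA and Trim Galore, with hg19 as the genome build. The sources used here give no tool versions or roles, no annotation, and no account of how reads matching several genes were treated. Rows with the same symbol were summed, which touched no member. Groups came from the treatment labels.

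Genes whose mean reached 1 FPKM were compared as log2(FPKM + 1), with a call at an absolute difference of 1. The calls were tested on simulated data with known shifts. Family sums add every listed member. To find shared 50-base sequences, each symbol's longest coding transcript in GENCODE 29 (matched for 49 of 50 members) was searched against all other genes on both strands. Promoters came from the RefSeq table. No hg19 coordinates are given. The members and lists were chosen with earlier results of these data known. Named are all members past the filter or called, the highest member of each family, and of each list the genes called and the 3 highest by mean. Other genes were chosen after their values were seen. The alternatives were fold limits of 1.5 and 4, pseudocounts of 0.1 and 0.5, a filter at 5 FPKM or none, quantile normalization, median-ratio scaling, a common total and sums over members past the filter. Copies summed first, equal pairs counted once and GAGE without GAGE12B were added after the data were seen. Python 3.11.15, numpy 2.4.6, pandas 2.3.3 and matplotlib 3.10.9 were used.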

Additional observations from a re-analysis of the deposited data

How the results depend on the processing

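No paired analysis was possible because each group has 1 library, and for the same reason no library could be left out. The number of members called at 5 µM against vehicle was 1, and it was 3 with a fold limit of 1.5, 0 with a limit of 4 and 0 with copies summed first. At 10 µM against vehicle it was 1, and it was 2 with a pseudocount of 0.1 or 0.5 (GAGE1 was added at −1.09 and −1.01), 0 with the filter at 5 FPKM, 3 with a fold limit of 1.5, 0 with a limit of 4 and 0 with copies summed first. Between the doses it was 3, and it was 4 with a fold limit of 1.5, 2 with the filter at 5 FPKM, 2 with median-ratio scaling, 2 with quantile normalization, 0 with a fold limit of 4 and 0 with copies summed first. MAGEA2B between the doses lay just under the call after median-ratio scaling (0.99) and quantile normalization (0.98). The share of all genes called was taken only at the main settings. The counts at other settings therefore have no such share beside them. For the 9 families with a member past the filter, 0 of the 27 family differences reached the call as deposited or under any alternative run. Scaling moved the median of all tested genes by at most 0.05 in size, and some family differences of 0.06 or less took the other sign. At 5 µM against vehicle this held for MAGEA under each of the 3 scalings and for XAGE with quantile normalization. At 10 µM against vehicle it held for MAGEA with median-ratio scaling and quantile normalization, and between the doses for MAGEA and CTAG with median-ratio scaling. The differences of MAGED2, MAGEF1, CSAG2, CSAG3 and GAGE1 against vehicle kept their sign under each pseudocount and scaling. The depth is unknown, so the error of values near 0 cannot be given.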

Other observations

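Genes that prepare and show peptides on HLA class I were unevenly expressed beside these antigens. HLA-E was at 9.71, 14 and 15.17 FPKM for vehicle, 5 µM and 10 µM, with both treated libraries above vehicle. HLA-B was at 0.03, 0.03 and 0.28 FPKM and HLA-C at 0.2, 0.11 and 0.45 FPKM. Whether these genes share reads with other class I genes was not tested. The peptide transporter genes TAP1 (0.12, 0.07 and 0.03 FPKM) and TAP2 (0.16, 0.25 and 0.79 FPKM) and the immunoproteasome gene PSMB9 (0.05 FPKM, listed at 0, and 0.05 FPKM) were also below the filter. ERAP1, which trims peptides in the endoplasmic reticulum, was at 3.47, 4.86 and 7.06 FPKM. The immunoproteasome gene PSMB10 was at 4.09, 5.9 and 7.19 FPKM. Both were highest at 10 µM, at plain ratios to vehicle of 2.03 for ERAP1 and 1.76 for PSMB10. Their differences on the log2(FPKM + 1) scale, 0.85 and 0.69, did not reach the call.

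Among the blood and stroma markers, the collagen genes COL1A1 and COL1A2 had high levels: 63.57, 85.84 and 98.52 FPKM for the first and 389.39, 412.4 and 370.87 FPKM for the second. PTPRC was at 1.03, 0.92 and 1.09 FPKM, and PECAM1 at 0.1, 0.16 and 0.11 FPKM.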
